A study of Drosophila melanogaster with 6 samples.

Results

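The basement membrane genes described here are the 10 genes for the collagen IV chains (Col4a1, vkg), the laminin chains (LanA, wb, LanB1, LanB2), the linking proteins (Ndg, trol), and proteins that bind or modify collagen (SPARC, Plod). They were chosen by gene symbol in the platform annotation, and all 10 had at least 1 probe set, 19 in all, among 18769 probe sets and 11981 genes. RNA was measured in whole embryos of Drosophila melanogaster with 6 Affymetrix arrays of 1 colour, 3 from wild type and 3 from trh null mutant embryos, to ask which genes depend on the tracheal regulator trh. Embryos of both genotypes were collected over 8 h, aged a further 11 h and passed through a COPAS biosorter. The labels give stages 11 to 16 for all samples, with stage 17 as the last stage in the wild type descriptions. Any difference in stage between the genotypes cannot be told apart from genotype. The trh null embryos were picked because they lacked the GFP carried by the balancer. The null allele is not named in the labels, and nothing says whether arrays of 1 genotype came from separate collections, so a p-value here speaks only of the spread among arrays, which may be technical.

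The basement membrane is the sheet of matrix that lies under epithelia and around muscle, nerve cord and tracheal tubes. Laminins, trimers of an alpha, a beta and a gamma chain, bind to cell surface receptors and start the sheet. Collagen IV, a triple helix of the chains of Col4a1 and vkg, adds a second network, and nidogen and perlecan connect the networks. In Drosophila embryos much of this matrix is made by hemocytes, the migrating blood cells, and by fat body, and is deposited on other tissues. A level measured in whole embryos therefore cannot be assigned to the tracheal epithelium, and fewer cells of a type cannot be told apart from less RNA per cell.

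No gene of the set passed the test between genotypes. With limma's moderated test, adjusted over all probe sets by Benjamini-Hochberg, 0 of 10 genes reached an adjusted p under 0.05, while 14.1% of all genes did, each gene read by its brightest probe set. At an unadjusted p under 0.05 the count was 1 of 10, SPARC, beside 30.4% of all genes. The log2 differences, trh null minus wild type, ran from -0.27 for Col4a1 to 0.73 for LanA, with 5 above and 5 below zero and a median of 0.01, and the median over all probe sets was -0.01. The 95% interval of the difference lay within 2-fold either way for 8 of the 10 genes, all but LanA and trol, and within 1.5-fold for 4 (wb, Ndg, SPARC and Plod). With wild type replicate 2 left out, the interval lay within 2-fold for all 10 genes and within 1.5-fold for 7, the laminin genes LanA, LanB1 and LanB2 in addition. All 10 brightest probe sets lay above 6.21, the median log2 level of all probe sets.

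The wild type array of replicate 2 stood apart for these genes. It was the lowest wild type array for 9 of 10 genes, all but SPARC, and the lowest of all 6 arrays for 5 (LanA, LanB1, LanB2, wb and trol), beside 32.9% and 22.4% of all genes. Its mean correlation with the other wild type arrays over all probe sets was 0.977, and those of replicates 1 and 3 were 0.987 and 0.985. The other wild type arrays lay close to the trh null arrays for laminins and trol and above them for collagen IV. The SD over 3 arrays was smaller in trh null embryos for 9 of 10 genes, beside 81.0% of all genes. Results are therefore given with and without that array. Without it 1 of 10 genes, vkg, passed, beside 32.2% of all genes, and the median log2 difference of the set was -0.18 in place of 0.01. Leaving out the lowest wild type array raises the wild type mean and so lowers the difference. For genes where wild type replicate 2 was lowest among wild type arrays, falls without it therefore partly follow from its removal.

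**Figure D1:**
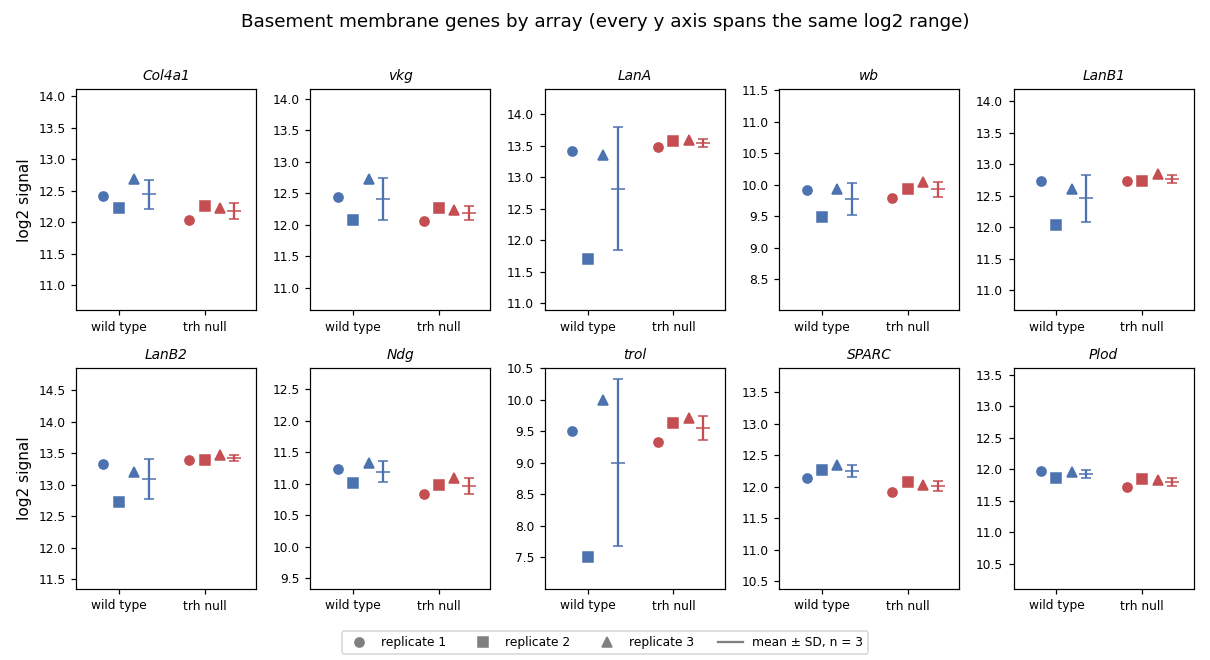
Log2 signal of the 10 basement membrane genes on each array, each by its brightest probe set (y axis, log2 signal), for wild type and trh null embryos, with the mean and SD of 3 arrays beside the points. The square of wild type replicate 2 lies far below the other points for LanA and trol, at 11.70 and 7.50.

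The collagen IV genes had lower means in trh null embryos. Col4a1, which encodes the alpha1 chain, had log2 signals of 12.42, 12.23 and 12.69 on wild type arrays 1 to 3 and of 12.03, 12.27 and 12.23 on the trh null arrays. The genotypes overlapped only through wild type replicate 2, and 2 wild type arrays lay above all trh null arrays. The difference was -0.27 (SE 0.14, limma adjusted p = 0.275), with a 95% interval from -0.60 to 0.06. vkg (viking), which encodes the alpha2 chain, had 12.44, 12.07 and 12.73 in wild type embryos and 12.07, 12.27 and 12.23 in trh null embryos. Its array order was much like that of Col4a1, again with wild type replicates 1 and 3 on top. The difference for vkg was -0.22 (SE 0.17, limma adjusted p = 0.466).

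Without wild type replicate 2 the differences for both collagen genes were larger in size. That of vkg was -0.40 (SE 0.11, limma adjusted p = 0.0453), a 1.31-fold lower level, and that of Col4a1 was -0.38 (SE 0.12, limma adjusted p = 0.0562), which did not pass. In that fit the 95% interval of Col4a1 reached from -0.65 to -0.10. The value for vkg without wild type replicate 3 was -0.06 (limma adjusted p = 0.814), so its size rested on which wild type array was used.

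The collagen IV genes lie next to each other on chromosome arm 2L in the RefSeq gene table, with no gene listed between them, and their signals moved together from array to array. The within-array log2 difference, Col4a1 minus vkg, ran from -0.04 to 0.16 over the 6 arrays. Wild type replicate 2 gave the highest of these values and the other 5 arrays were all slightly below zero. Signals of different probe sets are on different scales, so the change of this difference between arrays can be read and its size cannot.

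The genes whose signal over the 6 arrays was most like the mean of Col4a1 and vkg were Nlg2, Cpr56F, CG4301, CG5399 and CG32225, with Pearson correlations of 0.997, 0.986, 0.986, 0.984 and 0.980. They were ranked among 7730 genes with a mean at or above the median of all probe sets, of which 47 exceeded 0.95. With 6 arrays that share genotype and array effects these correlations only describe the profiles. Nlg2 had log2 signals of 7.05, 6.65 and 7.48 in wild type embryos and 6.56, 6.84 and 6.74 in trh null embryos. None of the 5 genes passed with all arrays, and the log2 difference was lowest for Cpr56F (-0.71, SE 0.31, limma adjusted p = 0.204). With wild type replicate 2 dropped 4 of the 5 fell, all but CG32225, beside 14.8% of all genes. Cpr56F fell by 1.03 and CG5399 by 0.96 (limma adjusted p = 0.00999 and 0.00877). The 5 were picked for a profile with that array lowest among wild type arrays, so falls in that fit largely follow from the choice.

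The laminin genes had higher means in trh null embryos, and this came mostly from 1 wild type array. LanA, which encodes an alpha chain, had log2 signals of 13.415, 11.70 and 13.34 in wild type embryos and 13.47, 13.57 and 13.59 in trh null embryos. All trh null arrays lay above all wild type arrays, but wild type replicates 1 and 3 lay close below them. The difference of 0.73 had an SE of 0.45 (limma adjusted p = 0.360). Without wild type replicate 2 the difference was 0.16 (SE 0.08, limma adjusted p = 0.166), and its 95% interval, from -0.02 to 0.35, left room for a 1.27-fold higher level at most. With arrays weighted by their quality it was 0.22 (limma adjusted p = 0.344).

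The beta and gamma chains are shared by all laminin trimers of the fly. LanB1, the beta chain gene, had log2 signals of 12.74, 12.03 and 12.60 in wild type embryos and 12.73, 12.74 and 12.84 in trh null embryos, so that the genotypes overlapped. LanB2, the gamma chain gene, had 13.33, 12.73 and 13.21 in wild type embryos and 13.40, 13.39 and 13.48 in trh null embryos, with every trh null array above every wild type array. The differences were 0.31 (SE 0.18, limma adjusted p = 0.340) and 0.33 (SE 0.16, limma adjusted p = 0.251). They were 0.10 and 0.15 without wild type replicate 2 (limma adjusted p = 0.420 and 0.203). The chains kept step across arrays: the within-array difference, LanB1 minus LanB2, ran from -0.69 to -0.59.

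The other alpha chain gene, wb (wing blister), had 9.92, 9.48 and 9.93 in wild type embryos and 9.80, 9.94 and 10.05 in trh null embryos by its brightest probe set. The genotypes overlapped and the difference was 0.15 (SE 0.15, limma adjusted p = 0.563), and 0.00 without wild type replicate 2 (limma adjusted p = 0.977). Whether the alpha chains changed alike was tested on the within-array difference, LanA minus wb. It was 3.50, 2.21 and 3.42 in wild type embryos and 3.68, 3.63 and 3.54 in trh null embryos, higher on every trh null array. The change of 0.57 gave p = 0.1 in an exact two-sided permutation test with n = 3 arrays per genotype, the smallest p this design allows. It was 0.16 without wild type replicate 2.

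**Figure D2:**
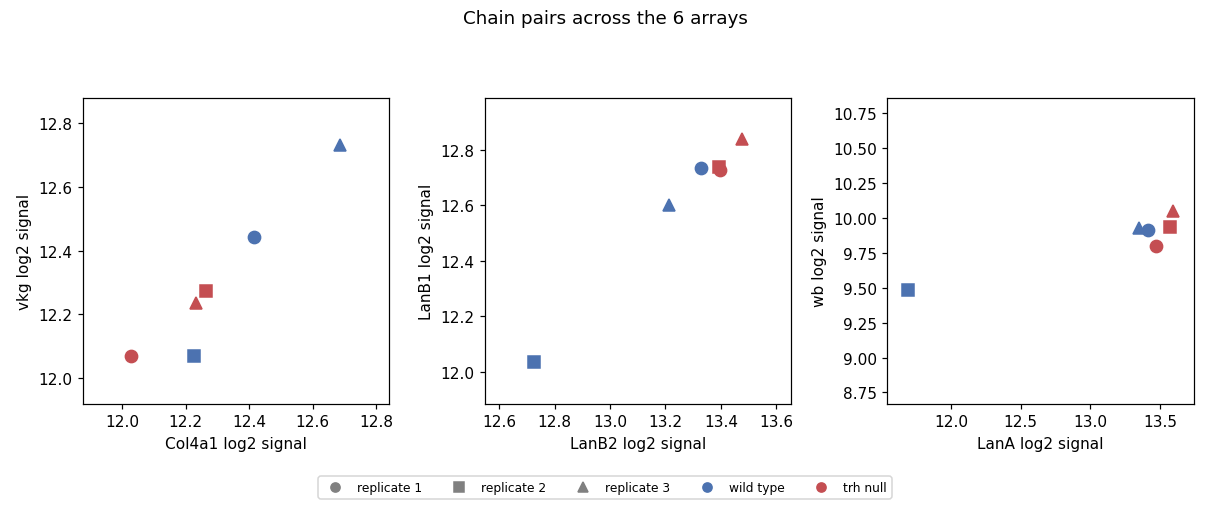
Log2 signals of vkg against Col4a1, LanB1 against LanB2, and wb against LanA on the 6 arrays, with equal scales on both axes of a panel, blue for wild type, red for trh null, and a marker shape per replicate number. The first 2 panels follow a diagonal, and in the third wild type replicate 2 lies apart along LanA (11.70) more than along wb (9.48).

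Of the linking proteins, nidogen had a lower mean in trh null embryos, like collagen IV, and perlecan varied most between wild type arrays. Ndg, the nidogen gene, had log2 signals of 11.23, 11.00 and 11.33 in wild type embryos and 10.83, 10.98 and 11.09 in trh null embryos. Of the trh null arrays 2 lay below every wild type array, and the remaining one overlapped only with wild type replicate 2. The difference was -0.22 (SE 0.12, limma adjusted p = 0.285) with all arrays and -0.31 (SE 0.10, limma adjusted p = 0.0558) without wild type replicate 2.

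The perlecan gene trol (terribly reduced optic lobes) encodes a heparan sulfate proteoglycan and had 8 probe sets. The brightest gave log2 signals of 9.51, 7.50 and 10.002 in wild type embryos and 9.34, 9.63 and 9.71 in trh null embryos. The trh null arrays fell inside the wild type range, which spanned more than in any other gene of the set. The difference of 0.55 (SE 0.62, limma adjusted p = 0.624) turned to -0.20 (SE 0.17, limma adjusted p = 0.449) without wild type replicate 2, and it was 0.10 with array weights and 0.19 as the mean over the probe sets. That array lay 2.26 below the mean of the other wild type arrays, a deviation that only 0.336% of all probe sets undercut.

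The next 2 probe sets of trol, also bright, showed the same gap, with 7.63 and 7.57 on wild type replicate 2 and signals from 8.97 to 9.80 on the other 5 arrays. The fourth, at 7.17 ± 0.15 in wild type embryos and 7.34 ± 0.03 in trh null embryos (SD, n = 3), did not show such a gap. The 4 dimmest were under the median level of the array, and none of the 8 passed. Where these probe sets lie in the transcript is not given in the sources used here. The 2 further probe sets of wb were dim, at 4.89 and 4.49 in wild type embryos. The first was higher on every trh null array (0.24, SE 0.09, limma adjusted p = 0.140) and passed without wild type replicate 2 (0.29, limma adjusted p = 0.0417), while the second differed by -0.04 and by -0.10 without that array.

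**Figure D3:**
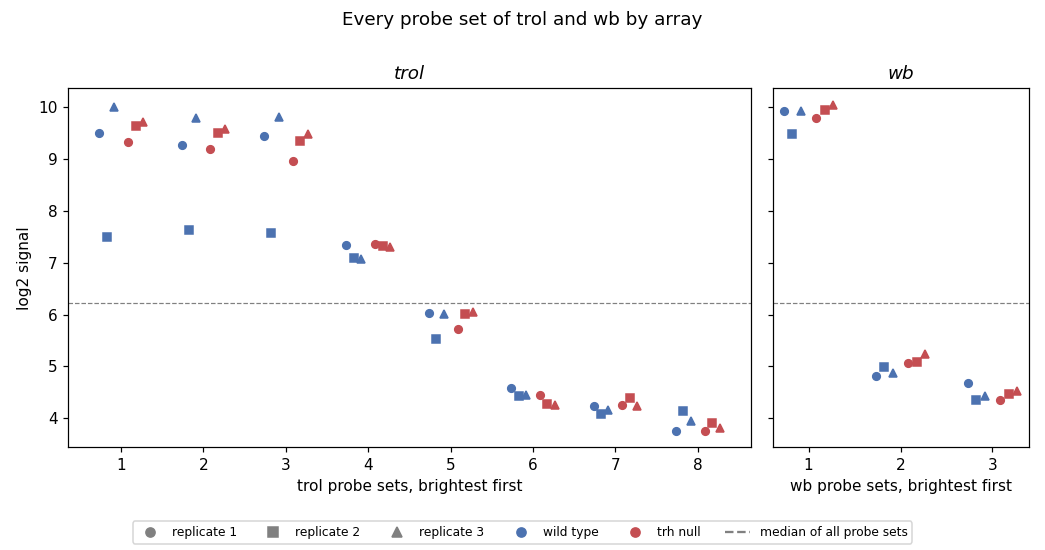
Log2 signal of the 8 probe sets of trol and the 3 probe sets of wb on each array, ordered by mean signal, with the median of all probe sets (6.21) as a dashed line. Wild type replicate 2 (blue square) lies near 7.6 on the 3 brightest trol probe sets, where the other arrays lie at 8.97 or above.

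SPARC and Plod varied least between wild type arrays. SPARC, a collagen-binding protein of hemocytes and fat body that collagen IV networks need, had log2 signals of 12.14, 12.26 and 12.34 in wild type embryos and 11.92, 12.08 and 12.02 in trh null embryos. Every trh null array lay below every wild type array. The difference was -0.24 (SE 0.09), a 1.18-fold lower level, with an unadjusted p of 0.0341 and a limma adjusted p of 0.148. It was -0.23 without wild type replicate 2, which for this gene lay between the other wild type arrays. Plod, the lysyl hydroxylase that modifies collagen in the endoplasmic reticulum, had 11.98, 11.86 and 11.95 in wild type embryos and 11.72, 11.85 and 11.82 in trh null embryos. It too was lower on every trh null array, by a narrow margin (-0.13, SE 0.08, limma adjusted p = 0.349). Counting LanA and LanB2 as well, the genotypes did not overlap for 4 of 10 genes, beside 38.2% of all genes, with 2 higher (18.8% of all genes) and 2 lower (19.4%).

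**Figure D4:**
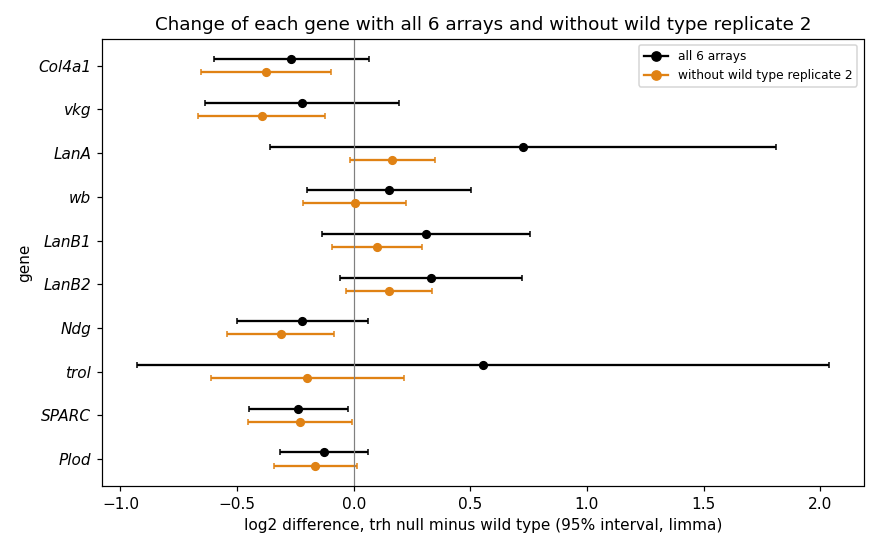
Log2 difference, trh null minus wild type, for each gene with its 95% interval from limma (x axis), with all 6 arrays in black and without wild type replicate 2 in orange. The values for Col4a1, vkg, Ndg, SPARC and Plod are below zero in both fits, and that for trol turns from 0.55 to -0.20.

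Other genes of the same matrix were read from lists for matrix proteins, collagen making, receptors and adhesion, and matrix turnover. Of 40 listed genes 36 were measured, of which 3 rose, 4 fell and 29 did not pass, beside 6.79% of all genes that rose and 7.31% that fell. The median log2 difference of the 36 was -0.11. No probe set named Rab8, Sec23, Sar1 or Mmp1 alone, and these genes were not analysed here. Without wild type replicate 2, 6 rose and 12 fell, beside 17.4% and 14.8% of all genes.

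Among 8 further matrix genes Pxn rose, prc fell and 6 did not pass. Pxn encodes peroxidasin, an enzyme that crosslinks collagen IV, and its brightest probe set gave log2 signals of 9.86, 10.05 and 9.92 in wild type embryos and 10.90, 10.91 and 10.84 in trh null embryos. The rise of 0.94 (SE 0.08, limma adjusted p = 0.00173), 1.92-fold, was seen on all 3 trh null arrays and passed with any 1 array left out. A second, dim probe set of Pxn, at 4.66 in wild type, differed by -0.04, and the mean over both rose by 0.45 (limma adjusted p = 0.0180). The collagen-like matrix gene of the heart, prc (pericardin), fell by 0.85 (SE 0.14, limma adjusted p = 0.0131), from 9.51 ± 0.24 to 8.66 ± 0.11 (SD, n = 3). It no longer passed when a trh null array was dropped, whichever it was (limma adjusted p 0.0589 to 0.0636).

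The brightest matrix genes that did not pass were Ppn (papilin, -0.29), Glt (glutactin, 0.10) and Tig (tiggrin, an integrin ligand, 0.06). In the fit without wild type replicate 2, Ppn fell by 0.54 (limma adjusted p = 0.00550). In that fit Mp, the collagen XV/XVIII gene, fell by 0.88 (limma adjusted p = 0.00314), and loh, which encodes a protein that anchors pericardin, fell by 0.78 (limma adjusted p = 0.00431). With all arrays Mp and loh had differences of -0.58 and -0.55 and did not pass. Wild type replicate 2 was the lowest wild type array for Ppn, Mp and loh, so these falls partly follow from leaving it out. A second, dim probe set of Mp differed by -0.12, and by -0.09 without wild type replicate 2 (limma adjusted p = 0.393 and 0.457).

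In the list for collagen making none of 8 measured genes passed with all arrays in limma, and 2 were lower at an unadjusted p under 0.05. The prolyl hydroxylase gene PH4alphaEFB differed by 0.09 (SE 0.19), and Rab10, for a GTPase of basal secretion in follicle cells, by 0.04 (SE 0.11). Tango1, for the cargo receptor that loads collagen at endoplasmic reticulum exit sites, differed by 0.56 (SE 0.30, limma adjusted p = 0.294). Tango1 was at 11.02, 9.85 and 10.84 in wild type embryos and 11.03, 11.10 and 11.24 in trh null embryos, again lowest on wild type replicate 2. Lower at an unadjusted p were strat (-0.92, limma adjusted p = 0.0607) and the dim PH4alphaMP (-0.56, limma adjusted p = 0.0687), and both fell without wild type replicate 2 (limma adjusted p = 0.00337 and 0.0235).

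Among 15 genes of receptors and adhesion, scb and ItgaPS4 rose, stck fell and 12 did not pass. The largest change on the 4 lists was that of scb, which encodes the integrin subunit alphaPS3. Its log2 signals were 7.11, 7.18 and 7.15 in wild type embryos and 8.57, 8.67 and 8.78 in trh null embryos, a wide gap between genotypes. The rise of 1.52 (SE 0.08, limma adjusted p = 0.000390) was 2.88-fold, and it passed with any 1 array left out. The alphaPS4 gene ItgaPS4 lies next to scb in the RefSeq gene table, and it rose by 0.40 (SE 0.08, limma adjusted p = 0.0280) from a dim 4.40. It no longer passed when any array other than wild type replicate 2 was dropped (limma adjusted p 0.0634 to 0.130). The adhesion adaptor gene stck, for the fly PINCH protein, fell by 0.68 (SE 0.07, limma adjusted p = 0.00268), from 11.80 ± 0.02 to 11.12 ± 0.04 (SD, n = 3), and likewise passed throughout.

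Genes for the integrin subunits beta, alphaPS1 and alphaPS2 and for dystroglycan did not pass by their brightest probe sets. The integrin beta subunit gene mys differed by -0.26 (SE 0.13, limma adjusted p = 0.262) and the alphaPS1 gene mew by -0.21 (limma adjusted p = 0.389) by its brightest probe set. A second probe set of mew pointed the other way (0.57, limma adjusted p = 0.0596), and it passed without wild type replicate 2 (limma adjusted p = 0.0458), as did the second of mys, which fell by 0.36 (limma adjusted p = 0.0387). The alphaPS2 gene if differed by 0.25 (SE 0.16), and Dg, for dystroglycan, by -0.27 (SE 0.34). Of the brightest genes that did not pass, rhea (talin) differed by -0.37, parvin by -0.29 and Sdc (syndecan) by 0.63. Without wild type replicate 2, rhea and Dg fell by 0.57 and 0.68 (limma adjusted p = 0.00266 and 0.00988), and Sdc rose by 0.33 (limma adjusted p = 0.0365). That array was the lowest wild type array for rhea and Dg, so their falls partly follow from leaving it out.

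Of 5 measured turnover genes Timp and stl fell and 3 did not pass. Timp, the inhibitor of matrix metalloproteinases, had log2 signals of 8.91, 8.81 and 9.24 in wild type embryos and 7.85, 8.24 and 8.18 in trh null embryos. It fell by 0.90 (SE 0.16, limma adjusted p = 0.0162), 1.87-fold, and its second probe set fell by 1.03 (limma adjusted p = 0.00642). The brightest no longer passed when a trh null array was dropped, whichever it was (limma adjusted p 0.0546 to 0.0686). stl, for an ADAMTS family protease, fell by 0.55 (SE 0.08, limma adjusted p = 0.00865), and it did not pass without trh null replicate 2 or 3 (limma adjusted p = 0.0556 and 0.0575). The metalloproteinase gene Mmp2 was higher on every trh null array (0.35, limma adjusted p = 0.0828), as was AdamTS-B (0.57, limma adjusted p = 0.0564), while AdamTS-A was lower (-0.32, limma adjusted p = 0.0741). Without wild type replicate 2 Mmp2, AdamTS-B and AdamTS-A passed in those directions (limma adjusted p = 0.0402, 0.00164 and 0.0242). A second, dimmer probe set of AdamTS-A fell by 0.33 (limma adjusted p = 0.0309). That of Mmp2, also dimmer, differed by 0.09 (limma adjusted p = 0.715).

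**Figure D5:**
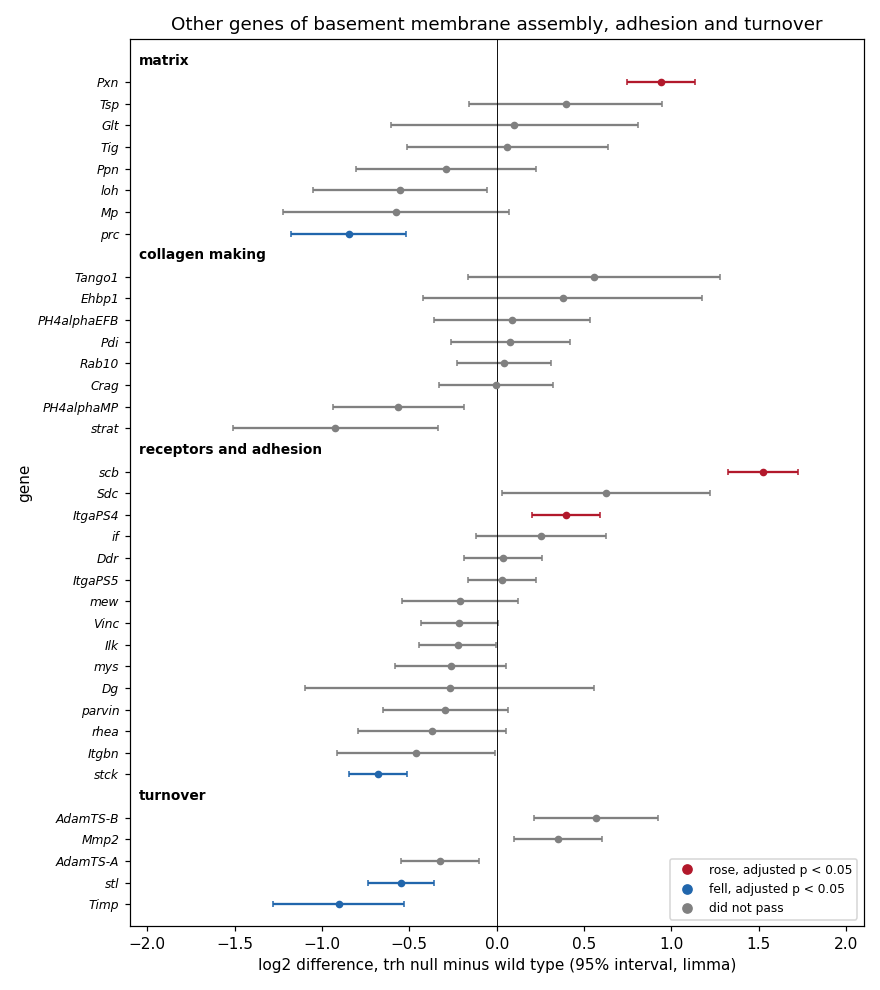
Log2 difference, trh null minus wild type, with its 95% interval from limma (x axis) for the 36 measured genes of the 4 lists, red for genes that rose, blue for genes that fell and grey for genes that did not pass. The scb interval, around 1.52, stands farthest from zero.

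Markers of tissues that make or carry this matrix moved in different ways, and their part in the values above was not tested. Of 13 hemocyte markers 4 rose (NimC4, Pxn, gcm and gcm2), none fell and 9 did not pass. Of all genes 6.79% rose and 7.31% fell. The mean log2 signal over that list lay between 7.61 and 7.69 on wild type arrays and between 7.996 and 8.05 on trh null arrays. The 4 genes that rose weigh on this mean, and Pxn is also counted among the matrix genes. The median log2 difference of the list was 0.19, with 11 genes above and 2 below zero. NimC4, a phagocytosis receptor gene, rose by 1.14 (SE 0.26, limma adjusted p = 0.0371). The transcription factor genes gcm2 and gcm, which are also used in glia, rose by 0.95 and 0.47 (limma adjusted p = 0.00268 and 0.0261). Of these gcm2 was dim, at 5.71 in wild type embryos, under the array median, and 6.65 in trh null embryos. Dropping any trh null array took NimC4 and gcm over the threshold (limma adjusted p 0.0720 to 0.139). Dropping wild type replicate 1 did so for NimC4 (0.0866), and dropping wild type replicate 3 or using a trended, robust prior did so for gcm (limma adjusted p = 0.0600 and 0.0721). Of the brightest markers that did not pass, PPO1 differed by 0.07 and Pvr by 0.09. The marker crq, whose signal was also above the array median, hardly differed between genotypes (-0.04, SE 0.12, limma adjusted p = 0.864). Hml, He, eater, lz and NimC1 had means of 6.39 or below in both genotypes, near or under the array median. With wild type replicate 2 dropped 5 of the 13 markers rose, beside 17.4% of all genes. They were the same 4 genes and lz (0.33, limma adjusted p = 0.0343). The GATA factor gene srp, used in hemocytes and fat body, was at 10.15, 8.98 and 9.87 in wild type embryos and 10.18, 10.27 and 10.40 in trh null embryos, with its lowest value on wild type replicate 2.

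None of 5 measured fat body markers passed in limma, beside 14.1% of all genes, with none at an unadjusted p under 0.05 either, beside 30.4%. Of the 5, Fbp1, Fbp2 and Lsp2 were dim, with means of 5.98 or below in both genotypes, under the array median. Their lack of change therefore says little. The lipoprotein genes apolpp and Apoltp were also lowest on wild type replicate 2, at 12.42 and 9.61 beside signals of 13.84 to 14.04 and 11.55 to 11.63 on the other arrays. Of 6 tracheal markers btl and Gasp fell, by 1.38 and 1.53, beside 7.31% of all genes. The dysf gene rose by 0.54 from a dim 5.33, beside 6.79% of all genes that rose, with a second probe set that fell by 0.37 (limma adjusted p = 0.0322). The others, serp and verm at -0.25 and -0.32, did not pass, nor did pio. Of these verm passed without wild type replicate 2 (-0.36, limma adjusted p = 0.0319). The dysf rise did not pass without wild type replicate 1 or any trh null array (limma adjusted p 0.0530 to 0.117) or as the mean over its probe sets. Of 4 measured muscle markers Prm, up and Tm2 fell, by 1.51, 1.14 and 0.98, beside 7.31% of all genes. Mlc2 (-0.80) did not pass with all arrays. With wild type replicate 2 dropped it fell by 1.15 (limma adjusted p = 0.00728). Tm2 passed with an array dropped only where it was wild type replicate 2 (otherwise limma adjusted p 0.0747 to 0.123). The mean over the muscle list lay between 11.39 and 12.03 in wild type embryos and between 10.47 and 10.83 in trh null embryos. The mean over the fat body list lay between 7.84 and 8.52 in wild type embryos, lowest on replicate 2, and between 8.40 and 8.45 in trh null embryos. That over the tracheal list lay between 9.71 and 9.99, and between 9.25 and 9.44. Control probe sets read RNA quality as the 3' over the 5' signal of a transcript, on the log2 scale. For actin this was 1.30 to 1.46 on wild type and 0.74 to 0.80 on trh null arrays. For eIF-4a it was 1.40 to 1.59 and 1.10 to 1.15, and for GAPDH 1.03 to 1.18 and 0.69 to 0.93. For all 3 every wild type array lay above every trh null array, so this reading of RNA quality cannot be told apart from genotype. Wild type replicate 2 gave the lowest wild type value for all 3. The part of RNA quality in the results was not tested.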

How the data were processed

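RMA and Partek, without versions, are named in the submitters' processing notes. The deposited values were used as they are, on a log2 scale whose base is inferred from their range and from RMA. RMA makes array distributions alike and can hide a change shared by all transcripts. Control probe sets (183 of 18952) were left out, and those naming several genes (402) or none (4721) stood for no gene. A gene was read by its brightest probe set. RefSeq (Release 6 plus ISO1 MT) gave symbols and neighbours.

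limma 3.58.1 (lmFit and eBayes, R 4.3.3) was run with genotype as the only term, adjusted by Benjamini-Hochberg over 18769 probe sets with a threshold of 0.05, and tested on simulated data. "Rose" and "fell" mean passing it. The simulated data had the same spread in both genotypes and no array set apart, unlike these arrays, so they do not test that case. The 3 arrays per genotype limit precision.

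The members and lists were chosen with earlier results of these data known. Named were all members, called list genes, up to 3 bright uncalled genes per pathway list and 2 per marker list, and the 5 genes most like collagen IV. Mp, loh, strat, PH4alphaMP, mys, mew, if, Dg, srp, crq, pio, Fbp1, Fbp2, Lsp2 and dim hemocyte markers were named after their values were seen. Alternatives were a trended and robust prior, median centring, cyclic loess, a filter on the 40% dimmest probe sets, averaging a gene's probe sets, array weights, a replicate block, a threshold of 0.01 and each array left out. Promoter sequences were not analysed here. Figures used matplotlib 3.10.9.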

Additional observations from a re-analysis of the deposited data

How the results depend on the processing

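With each array left out in turn, between 704 and 5001 of 18769 probe sets passed in place of 2219, between 0 and 1 of the 10 members were lower and 0 were higher. The log2 difference of vkg then ran from -0.40, without wild type replicate 2, where it passed, to -0.064. That of trol ran from -0.20, without wild type replicate 2, where its direction turned, to 1.05. The other 128 of 130 member values under the alternatives kept their direction and did not pass. Arrays left out in turn gave between 2 and 6 pathway genes that rose and between 1 and 12 that fell. Array weights gave 6003 probe sets, 0 members, and 5 pathway genes that rose and 15 that fell. A threshold of 0.01 gave 738 probe sets, 0 members, and 2 pathway genes that rose and 2 that fell. With the replicate number as a replicate block, 726 probe sets and 0 members passed, and 2 pathway genes rose and 2 fell. The numbers were not taken as pairs: deviations of same-numbered arrays correlated at -0.37, -0.06 and -0.05, and 0 of 6 arrays correlated best with their own number. The change of LanA minus wb ran from 0.16 to 0.80 with 1 array left out, where the smallest possible p is 0.2. The cause of the gap on wild type replicate 2 was not tested.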
